A study of Mus musculus with 3 samples.

Results

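The cells described here are the natural killer (NK) cells and related innate lymphoid cells of a mouse uterus that carried few transcripts of granzymes D, E, F and G. They were chosen from the measured counts: at least 500 detected genes, at most 20% of UMIs (unique molecular identifiers, 1 per captured transcript) from mitochondrial genes, and at least 3 UMIs summed over Ncr1, Klrb1c, Nkg7, Prf1, Il2rb and Klrd1. They also had at most 1 UMI over the CD3 genes Cd3e, Cd3d and Cd3g, fewer than 3 over the complement genes C1qa, C1qb and C1qc, and fewer than 10 UMIs of Gzmd, Gzme, Gzmf and Gzmg per 10000. The rule took 198 of 1825 quality-filtered cells (10.8%, 95% interval 9.46 to 12.4%). The 104 cells that met every other condition but reached the granzyme limit are called granzyme-rich NK cells, and the 198 made up 65.6% of both NK groups together.

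The series asks what cells make up the mouse uterine environment in early pregnancy. Females were raised to 8 weeks of age, paired with stud males and dissected on day 7.5 of pregnancy, and the uterus was dissociated with trypsin for droplet single-cell RNA sequencing. The analysis used 1 sample. Its labels give no genotype, and neither the number of animals in it nor their genetic background is given in the sources used here. The 2 other samples of the series, Prl8a2icre/+ Sun1-GFPLsL/+ and Sun1-GFPLsL/+, are not analysed here. All groups below are cells of 1 library, taken at 1 age and day, and a cell is no replicate of a condition. For that reason groups were not tested against each other, there are no p-values, and every interval covers counting error only.

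Uterine NK cells gather in the decidua, the stroma that transforms around the implanted conceptus, and are known for secreting interferon gamma and for their part in remodelling maternal arteries. They lie beside tissue-resident cells close to group 1 innate lymphoid cells (ILC1), which share the receptors NKp46 and NK1.1 and the transcription factor T-bet with them. Granzymes are serine proteases stored in cytotoxic granules and delivered to target cells together with the pore protein perforin. In mice the granzyme family holds several closely similar genes, D to G, next to granzymes B and C.

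The 198 cells held between 831 and 48604 UMIs (median 5138.5), 1550456 in all, against a median of 17272.5 and a total of 2224713 in the granzyme-rich NK cells. Their median mitochondrial share was 3.15%, against 3.57%. Scrublet, a doublet caller, marked 13 of the 1825 cells, 3 of them among the 198. No sfGFP-Myc or iCre UMI was found in the 198, while all quality-filtered cells together held 22 and 1.

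6 of the 198 went against the label. They formed a cluster of their own (cluster 5 below) with 0 UMIs of Ncr1, Klrb1c, Nkg7, Prf1, Ccl5, Ifng and Xcl1, and passed the gate through 24 UMIs of Klrd1 and 1 of Il2rb. Their leading genes were the MHC class II genes H2-Ab1, H2-Aa and H2-Eb1 and the invariant chain Cd74, and together they held 37412 CPM (counts per 1000000 UMIs) over the list of dendritic cell markers, against 47.2 to 346 CPM in the other 5 clusters. They stay in all counts below unless the 192 others are named. The gate required at least 3 UMIs of the 6 NK genes of every cell, so holding them does not bear out the label of the 192 others. 15 of the 198 held exactly 3, and the median in cluster 3 below was 6. No member held a UMI of Cd3e, which the gate limits, or of Cd4 or Foxp3. The whole T cell list of 20 genes summed to 1387 CPM, against 1209 CPM in the granzyme-rich NK cells and 2798 CPM in T cells. Of its 6 genes with at least 50 UMIs over both NK groups, 2 were at least 2-fold higher in the 198 and none lower. Trdc, a gene of that list, was 3.52-fold higher (2.36 to 5.36) in the 192 others than in the granzyme-rich NK cells. 55 of the 198 and 68 of the 104 granzyme-rich NK cells held at least 3 UMIs of a marker list of stroma, epithelium, endothelium, phagocytes or B cells. In the granzyme-rich NK cells Pecam1 gave 446 of the 461 UMIs of the endothelial list, and Ighm 167 of the 169 of the B cell list. A fixed limit of 3 UMIs is also reached more easily in deeper cells, and the granzyme-rich NK cells were deeper. These counts are therefore no measure of mixing with other cell types. Over all 198 cells the stromal list reached 69.0 CPM, the epithelial list 184 CPM, the endothelial list 132 CPM and the phagocyte list 32.2 CPM, with C1qa and C1qb at 0. The ILC3 list gave 51 UMIs with 7 of its 12 genes at 0, so cells of that kind were not detectable as a group at this depth.

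Of the 7 markers of these cells, 4 were used by the gate (Ncr1, Klrb1c, Nkg7 and Il2rb), and their levels are descriptive only. Ncr1, which encodes the activating receptor NKp46, stood at 101 CPM (95% interval 86.0 to 118) in the 198 cells and 87.2 CPM in the granzyme-rich NK cells. Nkg7, a granule membrane protein gene, stood at 565 against 475 CPM, and Il2rb, the receptor chain shared by interleukin 2 and interleukin 15, at 1467 against 1209 CPM. Klrb1c, the gene of NK1.1, differed more, at 137 against 61.1 CPM. Of these 4 genes Klrb1c differed most between the NK groups.

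The 3 markers outside the gate were cytokine genes, and all 3 were higher in the 198 cells. Ccl5, a chemokine that attracts T cells and monocytes (ENSMUSG00000035042, chromosome 11, 83525778 to 83530518, GRCm38), stood at 256 CPM (231 to 283). The granzyme-rich NK cells held 1 UMI of it (0.449 CPM), a ratio of 570 with a counting interval of 102 to 22556. Xcl1, a chemokine for cross-presenting dendritic cells (ENSMUSG00000026573, chromosome 1, 164931644 to 164935527), stood at 537 CPM (501 to 574) against 98.0 CPM, a ratio of 5.48 (4.71 to 6.39). Ifng, the interferon gamma gene (ENSMUSG00000055170, chromosome 10, 118441046 to 118445892), stood at 110 CPM (93.8 to 127) against 7.19 CPM, a ratio of 15.2 (9.12 to 27.3). In 610 stromal cells without NK transcripts Ccl5, Ifng and Xcl1 gave 2, 1 and 3 UMIs, so these transcripts were nearly absent from cells of that type.

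The same 3 genes were unevenly spread over the 198 cells. Xcl1 was found in 128 cells (64.6%), Ccl5 in 53 (26.8%, 20.7 to 33.5%) and Ifng in 30 (15.2%). 1 cell held 97 of the 170 Ifng UMIs (57.1%), and without it the level was 47.3 CPM and the ratio to the granzyme-rich NK cells 6.58 (3.79 to 12.1). The cell with most Ccl5 held 65 of 397 UMIs, and the ratio without it was 478 (85.2 to 18925). The Ifng level of the group therefore rested in large part on 1 cell, and the Ccl5 level did not.

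**Figure D1:**
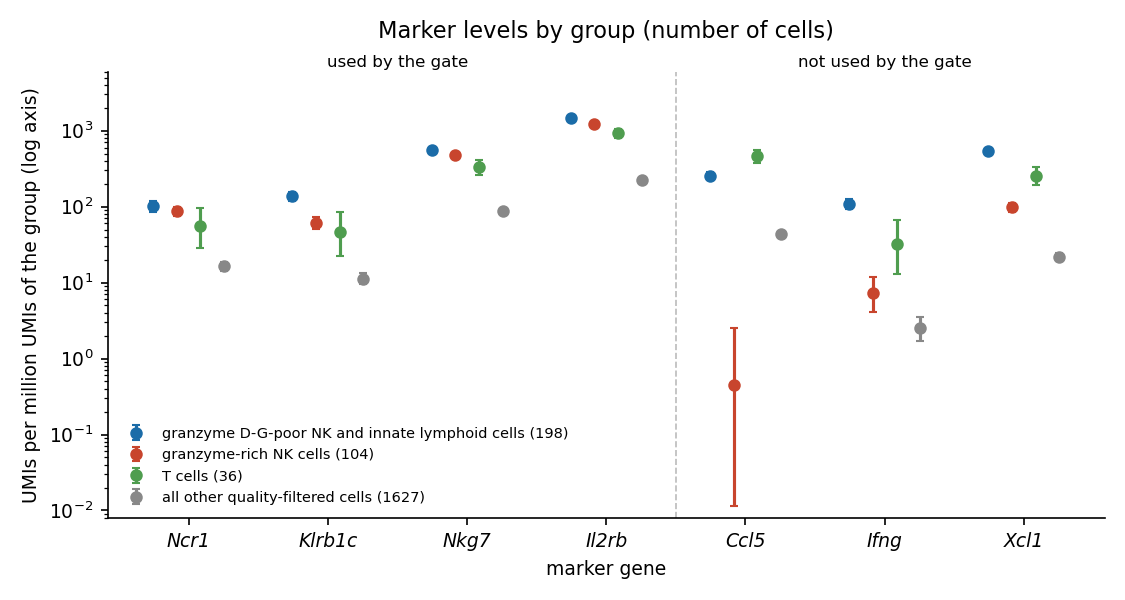
Levels of the 7 marker genes (horizontal axis) in CPM of the group (vertical axis, logarithmic) in the 198 granzyme D-G-poor cells, the 104 granzyme-rich NK cells, 36 T cells and all 1627 other quality-filtered cells; points are summed counts and bars exact Poisson 95% intervals. Ncr1, Nkg7 and Il2rb lie close together in both NK groups, while Ccl5 stands at 256 CPM in the granzyme D-G-poor cells and 0.449 CPM in the granzyme-rich ones.

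The granzyme limit cut through a continuous range of values. The 2 highest values among the 198 were 9.59 and 9.55 UMIs of Gzmd to Gzmg per 10000, and the 2 lowest among the granzyme-rich NK cells were 10.3 and 10.3. 20 of the 198 lay between 5 and 10 per 10000, and 15 granzyme-rich cells between 10 and 20. At the other border of the gate, 15 of the 198 held exactly 3 UMIs over the 6 NK genes, and 36 cells met every other condition with 2. In the whole group 134 cells held no UMI of the 4 granzymes and 64 held at least 1 (32.3%), against 18.0% of the stromal cells without NK transcripts (median 4280.0 UMIs) and 19.1% of the epithelial ones (median 7302). Summed over cells, the 4 genes stood at 1.75 per 10000 (1.55 to 1.97) in the 198 cells, 135 in the granzyme-rich NK cells, 0.417 (0.350 to 0.492) in the stromal cells and 0.151 (0.117 to 0.190) in the epithelial cells. The level in the 198 was thus low but above that in both cell types that should lack the genes. For the 3 of the 198 with fewer than 1000 UMIs, 1 granzyme UMI would already have passed the limit.

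**Figure D2:**
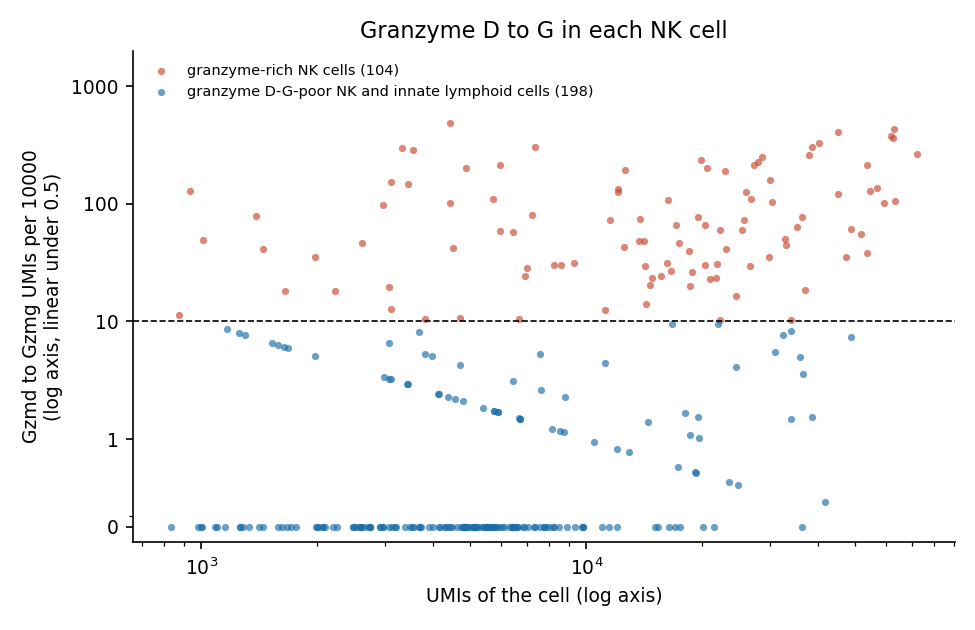
Each point is 1 cell of the 2 NK groups, with its UMIs on the horizontal axis (logarithmic) and its Gzmd to Gzmg UMIs per 10000 on the vertical axis (logarithmic, linear under 0.5); the dashed line is the limit of 10. The cells form no empty band at the limit, with 9.59 just below it and 10.3 just above, and the granzyme-rich cells reach higher total UMIs.

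Granzymes D to G are similar enough that some 3' reads may not tell them apart. The 4 transcripts were 86.4 to 94.8% identical to each other over 6 pairs, and 89.1 to 95.4% over their last 300 bases, where the reads of this chemistry fall. How well reads were assigned to the single genes was not tested, and their sum is used. Gzmc, which is not in the rule, was 73.0 to 74.6% identical to them over the transcript but 86.1 to 86.7% in the 300 bases around its start, so its transcript is the more separable and its promoter nearly as close. The 250 bases before the start sites of Gzmc, Gzmd and Gzmf are shown because these neighbouring genes were low together in the 198 cells (RefSeq sequence, GRCm38.p6, minus strand, 5′ to 3′). Gzmc is at chr14:56234658-56234907, Gzmd at chr14:56132594-56132843 and Gzmf at chr14:56211408-56211657. Capitals mark the letters TGTGGT or their reverse complement ACCACA, a core bound by RUNX factors.
Gzmc: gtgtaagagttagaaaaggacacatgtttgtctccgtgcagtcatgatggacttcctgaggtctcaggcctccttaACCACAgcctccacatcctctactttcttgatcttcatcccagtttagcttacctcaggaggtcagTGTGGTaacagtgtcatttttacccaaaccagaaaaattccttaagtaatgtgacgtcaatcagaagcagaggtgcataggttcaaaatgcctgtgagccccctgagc
Gzmd: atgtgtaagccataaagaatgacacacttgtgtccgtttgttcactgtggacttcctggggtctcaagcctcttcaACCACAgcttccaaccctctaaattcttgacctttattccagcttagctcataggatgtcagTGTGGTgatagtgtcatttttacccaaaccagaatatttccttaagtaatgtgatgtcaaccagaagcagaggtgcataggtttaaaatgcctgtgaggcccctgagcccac
Gzmf: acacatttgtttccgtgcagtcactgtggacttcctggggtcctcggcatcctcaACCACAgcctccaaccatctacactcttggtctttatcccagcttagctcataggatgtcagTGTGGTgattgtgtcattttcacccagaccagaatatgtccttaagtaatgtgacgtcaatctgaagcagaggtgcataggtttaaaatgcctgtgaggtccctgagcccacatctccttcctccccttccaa
Each of the 3 held the letters in 2 places, which began 174 and 108 bases before the start in Gzmc, 174 and 112 in Gzmd, and 195 and 133 in Gzmf. Both strands were searched, and no match overlapped another. The promoters of Gzme, Gzmg and Gzmb also held 2 matches each, while 16.8% of 32851 RefSeq promoters of 300 bases held at least 1. Promoters of granzymes D to G were 87.8 to 94.0% identical to each other, so their matches are not separate observations and no enrichment is read from them. Letters of T-box, STAT, AP-1 and NF-kB sites were searched too and did not occur in the promoters of Gzmc, Gzmd or Gzmf. Runx3, the RUNX factor gene that NK cells express, stood at 668 CPM in the 198 cells and 508 CPM in the granzyme-rich NK cells. A letter match is a description of the sequence and does not show binding.

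Granzymes A, B and C and perforin were also lower in the 198 cells than in the granzyme-rich NK cells, by less than the 4 genes of the rule. In this comparison 6990 genes were measured (at least 50 UMIs over both groups), and a gene was called when its ratio reached 2-fold in either direction and the 95% interval of the ratio left out 1. Higher in the 198 cells were 552 genes (7.9%), lower were 184 (2.63%), and the median log2 ratio of all measured genes was 0.04. The rule used this contrast, so the counts below are descriptions. Gzmc was 3.24-fold lower (3.08 to 3.40) at 1248 against 4041 CPM. Gzmb, the main caspase-activating granzyme, was 2.18-fold lower (2.09 to 2.28) at 1671 against 3643 CPM. Gzma, on chromosome 13, was 2.18-fold lower (2.07 to 2.30) at 1227 against 2681 CPM, and Prf1, the perforin gene, 3.29-fold lower (3.01 to 3.59) at 392 against 1289 CPM. Prf1 is in the gate and in the lower group at once.

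Granzymes B to G lie in 1 run on chromosome 14. Going up in GENCODE M21 coordinates (GRCm38), Ctsg, the cathepsin G gene (56099881 to 56102574), gave 0 UMIs against 51, at least 11.8-fold lower with the limit of 3 counts over the group. Next came the rule genes Gzme (starting at 56117626), Gzmd (56129556), Gzmg (56156582) and Gzmf (56205263), 46.5-fold, 64.3-fold, 134-fold and 103-fold lower, which the rule itself set. Gzmc (56231441 to 56234656) and Gzmb (56258838 to 56262260) closed the run with the smaller differences given above. The granule list as a whole did not move one way: of 22 genes 18 were measured, 4 were lower (Gzma, Gzmb, Gzmc and Prf1) and 2 were higher, with a median log2 ratio of 0.06. Ctsw, a lymphocyte cathepsin gene, was one of the higher ones at 326 against 138 CPM, 2.36-fold (2.04 to 2.73), or 1.59-fold (1.29 to 1.97) among cells of 3000 to 20000 UMIs, where it is not called, and Srgn, the proteoglycan that packs granules, stood at 910 against 736 CPM.

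Of the 26 genes of the cytokine and chemokine list 8 were measured, 6 of them higher and none lower, and the median log2 ratio was 3.19. Several of these passed the minimum of 50 UMIs only through the 198 cells, so the count and the median describe the measured genes and give no rank among lists. Besides Ccl5, Ifng and Xcl1 these included Ccl4, an inflammatory chemokine gene, at 199.9 against 4.49 CPM, a ratio of 44.5 (23.9 to 93.7). Ltb, the lymphotoxin beta gene, stood at 47.7 CPM against 1.35 CPM from 3 UMIs, a ratio of 35.4 with a counting interval of 11.6 to 176. Il16, a lymphocyte attractant gene, stood at 40.6 against 19.8 CPM (2.05, 1.38 to 3.09). Csf2 and Tnf gave 5 UMIs each in the 198 cells and were not measured.

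Depth differed between the NK groups, so the ratios were also taken among cells of 3000 to 20000 UMIs, 131 of the 198 and 48 granzyme-rich NK cells. There Ccl5 gave 346 UMIs against 0, at least 60.6-fold higher with the limit of 3 counts over the group. Xcl1 was 3.73-fold higher (2.92 to 4.83), Ccl4 32.6-fold (12.6 to 121) and Ifng 76.8-fold with 1 UMI on the granzyme-rich side (13.6 to 3053). The cell that held most Ifng UMIs lay in this band, so the size of this Ifng ratio rested in large part on it. Gzmb was 3.23-fold lower there, Gzmc 5.89-fold and Prf1 3.85-fold, while Gzma was 1.51-fold lower (1.38 to 1.65) and no longer met the size rule. The differences of these cytokine genes were thus present at like depth, and those of granzymes B and C were wider. Klrb1c (1.86-fold, 1.34 to 2.63) and Ifngr1 (1.44-fold, 1.27 to 1.64) lost their call in this band. Klrb1f, Itga2, Klf2, Il18rap, Il2ra, Cxcl10, Fcgr3, Havcr2 and Ctsg gave too few UMIs to be measured in it, so their ratios in this text have no value at like depth.

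Part of the NK receptor genes were higher in the 198 cells: of 30 measured on a list of 37, 12 were higher and 2 lower, and the median log2 ratio was 0.72. Among cells of 3000 to 20000 UMIs the median was 0.33, with 7 higher and 1 lower of 26. The Ly49 genes, whose products recognise MHC class I, included Klra4 at 418 against 106 CPM (3.96-fold, 3.40 to 4.61), Klra8 at 273 against 88.6 CPM (3.09-fold, 2.60 to 3.68) and Klra3 at 65.8 against 16.2 CPM (4.07-fold). They are near-identical copies, so the split of reads between them is uncertain. Klrb1f, an NKR-P1 receptor gene, was 8.61-fold higher (4.37 to 18.9). Lower were Klrg1, an inhibitory receptor of terminally differentiated lymphocytes, at 99.97 against 247 CPM (2.47-fold lower, 2.06 to 2.97), and Fcgr3, the gene of the low-affinity IgG receptor that NK cells carry (2.36-fold lower). Havcr2, the gene of the checkpoint receptor TIM-3, stood at 6.45 against 63.8 CPM, 9.90-fold lower (5.23 to 21.1). 7 of its 10 UMIs lay in the 6 class II cells, and without these 3 UMIs remained, a ratio of 32.1-fold lower with a counting interval of 10.8 to 157.

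Transcription factor genes of both NK cells and ILC1 were present. Eomes, required for conventional NK cells, stood at 261 against 218 CPM, a ratio of 1.20 (1.04 to 1.37). Tbx21, the T-bet gene shared by NK cells and ILC1, stood at 143 against 47.6 CPM and was 3.01-fold higher (2.37 to 3.82). Eomes was found in 118 of the 198 cells and Tbx21 in 96. Gata3 was 2.24-fold higher (1.68 to 3.02), and Tcf7, the TCF-1 gene of early lymphocytes, 7.60-fold (5.01 to 11.9) at 92.2 against 12.1 CPM. Irf8 stood at 1811 against 1094 CPM and Id2, the inhibitor of E proteins common to innate lymphoid cells, at 450 against 493 CPM. Of 21 measured factors on a list of 29, 9 were higher and none lower, with a median log2 ratio of 0.84. At like depth, in cells of 3000 to 20000 UMIs, 6 of 18 measured factors were higher and none lower (median 0.46). Zfp683, the Hobit gene, gave 4 UMIs against 0, and Rora 30 against 2.

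Genes assigned to resident and to circulating NK cells did not separate. Of 10 measured genes of the ILC1 and resident list 4 were higher and none lower (median log2 0.71), and of 13 measured circulating NK genes 7 were higher and 1 lower (median 1.26). Among cells of 3000 to 20000 UMIs the resident list had 4 of 10 higher and 1 lower (median 0.48) and the circulating list 4 of 10 higher and 1 lower (median 0.31). Itga1, the CD49a chain that marks tissue-resident NK cells, stood at 389 against 312 CPM, a ratio of 1.24 (1.11 to 1.39), and was found in 146 of the 198 cells. Among cells of 3000 to 20000 UMIs its ratio was 0.922 (0.782 to 1.09). Itga2, the CD49b chain of circulating NK cells, stood at 38.1 against 7.64 CPM and was 4.98-fold higher (2.86 to 9.11), while Itgam gave 40 against 7 UMIs and Itgae 5 against 0, both under the minimum. Cd7, an early NK and T cell surface protein gene, was 14.5-fold higher (9.54 to 23.1) at 157 against 10.8 CPM, and Cd27, a costimulatory receptor of less mature NK cells, 6.52-fold (4.08 to 10.9). Klf2, which encodes a factor needed to leave tissues, stood at 34.8 against 4.05 CPM (8.61-fold, 4.22 to 19.8). Genes of both lists were thus higher in part, and neither list alone described the 198 cells.

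Cytokine receptor and signalling genes followed, with 10 of 23 measured genes higher and 1 lower (median log2 0.88). Il21r was 8.18-fold higher (5.41 to 12.8), Il18rap, a chain of the interleukin 18 receptor, 7.49-fold (3.63 to 17.4), and Ifngr1 2.04-fold (1.87 to 2.23) at 833 against 408 CPM. Socs3, a feedback inhibitor of cytokine signalling, stood at 46.4 against 1.80 CPM, a ratio of 25.8 (9.66 to 97.4). Il2ra, the high-affinity interleukin 2 receptor chain, was the gene in the other direction, at 12.9 against 45.8 CPM (3.55-fold lower, 2.19 to 6.06). In the homing list 6 of 17 measured genes were higher and none lower (median log2 0.51), among them Cxcr4, a chemokine receptor of lymphocyte retention, at 72.9 against 5.84 CPM (12.5-fold, 7.01 to 24.1). At like depth, in cells of 3000 to 20000 UMIs, 3 of 16 measured homing genes were higher and none lower (median 0.22).

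Against the granzyme-rich NK cells, early response and heat shock genes were higher in 15 of 21 measured and none was lower. The median log2 ratio was 1.52. The list summed to 8884 CPM, against 4644 CPM in the granzyme-rich NK cells and 13240 CPM in T cells. All other quality-filtered cells reached 13231 CPM. Against them 9 of 22 measured genes were lower and none higher (median -0.82). Among these groups, the summed level was thus higher than in the granzyme-rich NK cells only. The ratios that follow are to the granzyme-rich NK cells. Junb, an AP-1 subunit, stood at 945 against 139 CPM (6.80-fold, 6.01 to 7.72) and Fos at 286 against 36.4 CPM (7.87-fold, 6.19 to 10.1). Gadd45b, a stress-induced gene, was 29.8-fold higher (15.4 to 66.2), Dusp1, a MAP kinase phosphatase, 13.1-fold (9.70 to 18.1) and Nr4a3, a receptor-induced nuclear receptor gene, 3.47-fold (3.1 to 3.89). Such genes also respond to warm enzymatic dissociation, and a part of that kind in this result was not tested. Of the heat shock genes, Hspa1a and Hspa1b had 86.9% and 86.2% of their UMIs in 1 cluster: without cluster 1, Hspa1b turned from 2.55-fold higher (2.31 to 2.81) to 2.43-fold lower (2.03 to 2.91), and Hspa1a from a ratio of 1.88 to 3.45-fold lower, while Junb stayed 5.15-fold higher. Hspa1a and Hspa1b are near-identical genes, and their split is uncertain. Without cluster 1, 11 of 20 measured genes of the list were higher and 2 lower.

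Vascular and trophic factor genes were few and went both ways. Vegfa, the main endothelial growth factor gene, stood at 295 against 49.0 CPM, 6.02-fold higher (4.87 to 7.48), and 4.10-fold (3.04 to 5.64) among cells of 3000 to 20000 UMIs. Spp1, the osteopontin gene, stood at 682 against 4328 CPM, 6.34-fold lower (5.95 to 6.76), and 9.32-fold lower (8.41 to 10.3) at like depth. Cxcl10, an interferon-induced chemokine gene on the same list, stood at 43.2 against 4.49 CPM (9.61-fold, 4.92 to 21). In all 2 of 5 measured genes were higher and 1 lower. Outside the lists, low ratios belonged to Scin, an actin-severing protein gene (14.0-fold lower, 7.67 to 28.5), Anxa3 (8.48-fold lower), Dsc2 (7.74-fold lower), Ifitm1 (7.74-fold lower, 5.97 to 10.2) and Mt2, a metallothionein (5.83-fold lower, 3.90 to 9.05). Of these, Ifitm1 was measured among cells of 3000 to 20000 UMIs (5.75-fold lower, 4.12 to 8.14), and Scin, Anxa3, Dsc2 and Mt2 gave too few UMIs there.

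**Figure D3:**
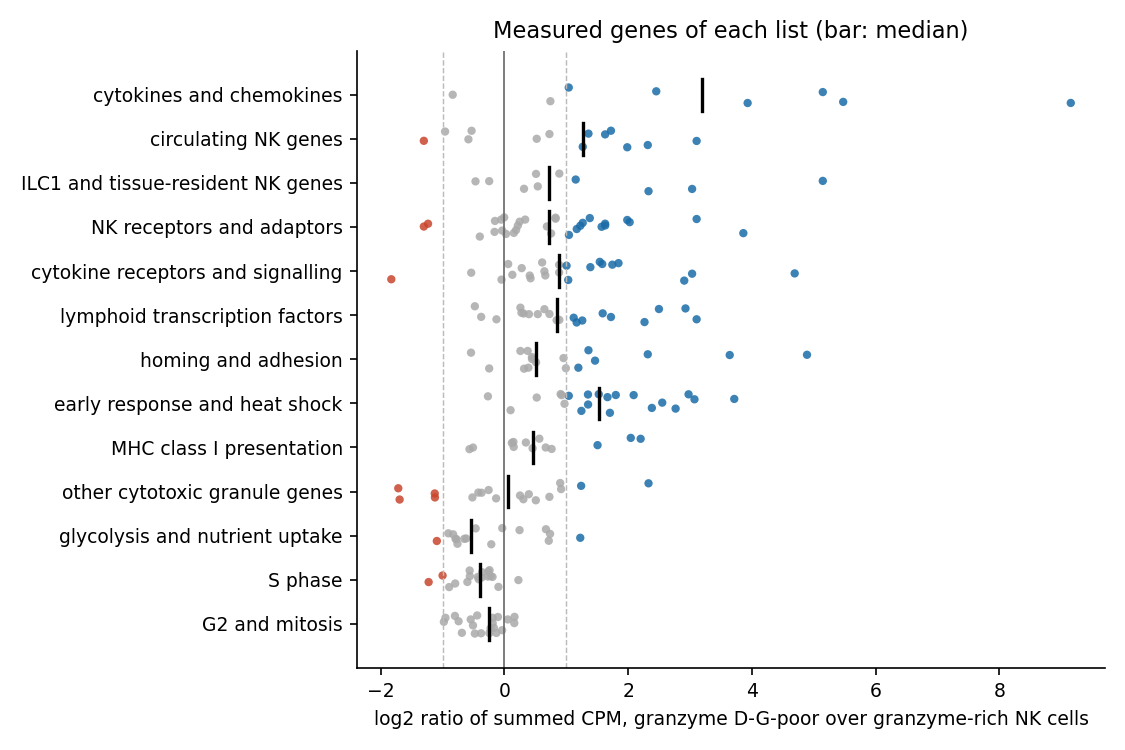
Each point is 1 measured gene of a list (rows), placed by its log2 ratio of summed CPM in the 198 granzyme D-G-poor cells over the 104 granzyme-rich NK cells (horizontal axis); blue points are at least 2-fold higher, red at least 2-fold lower, black bars are list medians. The cytokine list has a median of 3.19, and the S phase and mitosis lists lie just left of 0 at -0.39 and -0.24.

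Over all cells of both NK groups, cell cycle genes did not separate them, but part of these genes were lower in the 198 at like depth. None of 21 measured mitosis genes was higher or lower (median log2 -0.24, summed level 2356 against 2710 CPM), and 2 of 18 S phase genes were lower (median -0.39). 15 of the 198 cells, cluster 4 below, carried this: without them all 19 mitosis genes that were measured were lower, with a median of -2.67 and a summed level of 800.0 CPM, and 11 S phase genes were lower. No cycling cells were taken out of the granzyme-rich NK cells in this setting. Lower values were thus bound to follow, and they show only where the cell cycle transcripts of the 198 lay. Among cells of 3000 to 20000 UMIs 2 of 3 measured mitosis genes were lower (median -1.39), at a summed level of 857 against 1847 CPM. Of 11 measured S phase genes 2 were lower there (median -0.69). Glycolysis and nutrient uptake genes had, over all cells, a median of -0.54 with 1 of 16 higher and 1 lower. MHC class I presentation genes had a median of 0.45 with 3 of 13 higher and none lower, including the near-identical non-classical genes H2-Q6 (4.12-fold, 3.32 to 5.14) and H2-Q7 (4.60-fold, 3.79 to 5.61). In the interferon response list 3 of 7 measured genes were higher, led by Ifi203 (5.13-fold, 3.46 to 7.79). Of 7 survival genes 2 were higher, among them Bcl2l11, the gene of the death inducer BIM, at 604 against 251 CPM (2.41-fold, 2.17 to 2.68). Among cells of 3000 to 20000 UMIs it was 1.39-fold higher (1.20 to 1.62) and none of 6 survival genes was called (median 0.26).

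The 6 class II cells supplied 6 of the 10 highest ratios of the whole comparison, those of Cd74, Cd83, H2-Aa, H2-Ab1, H2-Eb1 and Il1b. Of the dendritic cell list 6 genes were measured and all 6 were higher (median log2 7.43). Without the 6 cells 1 was measured, Itgax, the CD11c gene that NK cells also express, with a log2 ratio of 2.92. The other results moved less. Without them 537 genes were higher and 185 lower, Ccl5 had a ratio of 586 (105 to 23194), Xcl1 5.63 (4.85 to 6.57), Ifng 15.7 (9.38 to 28.1), Klra4 4.07 (3.5 to 4.74), Gzmb was 2.12-fold lower and Spp1 6.18-fold lower. Gadd45b went from 29.8-fold to 23.6-fold (12.1 to 52.7). The cytokine receptor and signalling list had 9 of 23 genes higher with a median of 0.64, and the survival list 1 of 6 with a median of 0.27.

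Against all 1627 other quality-filtered cells of the uterus, 1041 of 12174 measured genes were higher (8.55%) and 3615 lower (29.7%), and the median log2 ratio was -0.23. This comparison also contains the gate genes, and nothing is read from these counts. Ifng was 43.7-fold higher (30.0 to 65.6), or 18.9-fold without the cell that held most of it, Cd7 24.0-fold (18.7 to 31.0), Xcl1 24.6-fold (21.5 to 28.2) and Klra4 20.1-fold. Klrb1f (31.8-fold), Klra3 (19.2-fold), Klra8 (16.1-fold), Samd3 (16.7-fold) and the neuropeptide gene Qrfp (21-fold) followed. Crtam, an adhesion receptor gene of activated lymphocytes, was 24.0-fold higher, but 1 cell held 43 of its 82 UMIs, and without it the ratio was 11.6. The lowest ratios belonged to Dcn, Col4a1, Igfbp5, Serping1, Rarres2, Csf1, Mt3, Sgms1, Clu and Krt19, among them matrix genes of stroma and a keratin of epithelium.

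The 36 T cells, defined by at least 2 CD3 UMIs, shared part of the cytokine pattern. They were not a clean reference: no limit on NK genes or granzymes was set for them. Their Gzmd to Gzmg sum was 34.2 per 10000, and 25% of them held such a UMI. 1 of them held 216 UMIs of the NK genes, and the deepest held 52539 of the group's 215481 UMIs. Dendritic cell markers summed to 2228 CPM in the group. Ccl4 stood at 199.9 CPM in the 198 cells and 199.6 CPM in T cells (ratio 1.002, 0.727 to 1.41), and Ccl5 was lower in the 198 cells than in T cells at 256 against 464 CPM, a ratio of 0.552 (0.442 to 0.694). Xcl1 was 2.10-fold higher (1.6 to 2.81) and Ifng 3.38-fold (1.6 to 8.52) in the 198. Most Ifng UMIs of the 198 lay in a single cell, as given above. The ratio to T cells without that cell is not given here, so a difference in Ifng from T cells is not claimed. Eomes was 5.10-fold higher (2.82 to 10.3) and Klra4 11.3-fold (5.68 to 26.2), while Klf2 was 11.6-fold lower (8.16 to 16.6), Rora 21.6-fold lower, Tcf7 2.36-fold lower and Ltb 2.43-fold lower. Trbc1, a T cell receptor constant gene that NK cells can transcribe unrearranged, stood at 544 CPM in the 198, 423 CPM in the granzyme-rich NK cells and 399 CPM in T cells. Ccl5 and Ccl4 were thus not higher in the 198 than in this mixed T cell group, while Klra4 and Eomes were.

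Clustering the 198 cells alone, without the genes of the rule, gave 6 groups, numbered 0 to 5. Their leading genes are how the clusters differ by construction and are descriptions. Cluster 0 (61 cells, 30.8%) led with Cd7 (383 CPM), Klra4 (864 CPM), Tcf7 (208 CPM), Nrarp, a Notch target (135 CPM), and Nr4a3 (1326 CPM). Its granzyme levels were low, with Gzma at 121 CPM, Gzmb at 177 CPM and Gzmc at 113 CPM. Cluster 0 thus joined the Ly49 transcripts with the lowest granzyme B and C levels of the 5 clusters that carried NK markers.

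Cluster 1 (55 cells, median 3681 UMIs) led with the heat shock genes Hspa1b (4205 CPM) and Hspa1a (1633 CPM), and with Depp1, Ifng (606 CPM) and Prap1 (6851 CPM). The cell that held most Ifng UMIs of the 198 lay in this cluster, so its Ifng level rested in large part on that cell. It held 68.3% of all Ccl5 UMIs of the 198 (1174 CPM) and 60.6% of the Ccl4 UMIs (814 CPM), but 21.3% of the Xcl1 UMIs. Its heat shock and early response list summed to 23003 CPM against 4247 to 12127 CPM in the other clusters, and its epithelial markers to 611 CPM. Prap1 and Wfdc2 are epithelial genes. 1 cell of 17522 UMIs held 1314 of the 2042 Prap1 UMIs, 73 of 109 Wfdc2 and 48 of 54 Depp1, and was not marked by Scrublet. A mix of lymphocyte and epithelial RNA in that barcode was not tested. Without cluster 1, Ccl5 remained at 95.5 CPM against 0.449 CPM (ratio 212, 37.4 to 8456) and Ccl4 at 92.5 CPM (20.6, 10.8 to 44.0), while Ifng fell under the minimum of 50 UMIs.

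Cluster 2 (31 cells, median 16680 UMIs) led with Cdca7, Gzmb (3338 CPM), Gzmc (2307 CPM), AA467197 and S100a4 (547 CPM), and held 59.6% of the Gzmb and 55.2% of the Gzmc UMIs of the 198. Its Gzmb level lay near the 3643 CPM of the granzyme-rich NK cells, but its Spp1 level was 1102 CPM against 4328 CPM, and its Gzmd to Gzmg sum was 1.97 per 10000. Cluster 4 (15 cells, median 30839 UMIs) led with the replication histone genes Hist1h1b, Hist1h2ap, Hist1h2ae and Hist1h3c and the spindle gene Nusap1. Its mitosis genes summed to 7493 CPM, with Mki67 at 879 CPM, and it held 23.3% of all UMIs of the 198 and no UMI of Ccl5 or Ccl4. Gzma stood at 1917 CPM and Gzmb at 2327 CPM in cluster 4. High Gzma, Gzmb and Gzmc within the 198 were thus found in the cells with most UMIs, and Ccl5 and Ccl4 in others.

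Cluster 3 (30 cells, median 2537.5 UMIs) stood apart in quality. Its median mitochondrial share was 12.1%, its stromal markers summed to 611 CPM, and it held all 3 cells that Scrublet marked. It led with Igfbp3, Fbxl5, Cdip1, Plod2 and the transcription factor gene Ikzf2 (407 CPM), and 1 cell held 36 of the 72 Igfbp3 UMIs of the 198. Without it 492 genes were higher and 193 lower than in the granzyme-rich NK cells. Cluster 5 (6 cells) is the class II group described above, with H2-Ab1 at 8444 CPM, Cd74 at 9687 CPM, Il1b at 4832 CPM and Ccr7, the receptor of lymph node homing, at 1431 CPM. Eomes was found at 193 to 352 CPM and Tbx21 at 82.1 to 247 CPM in clusters 0 to 4, and neither was found in cluster 5.

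**Figure D4:**
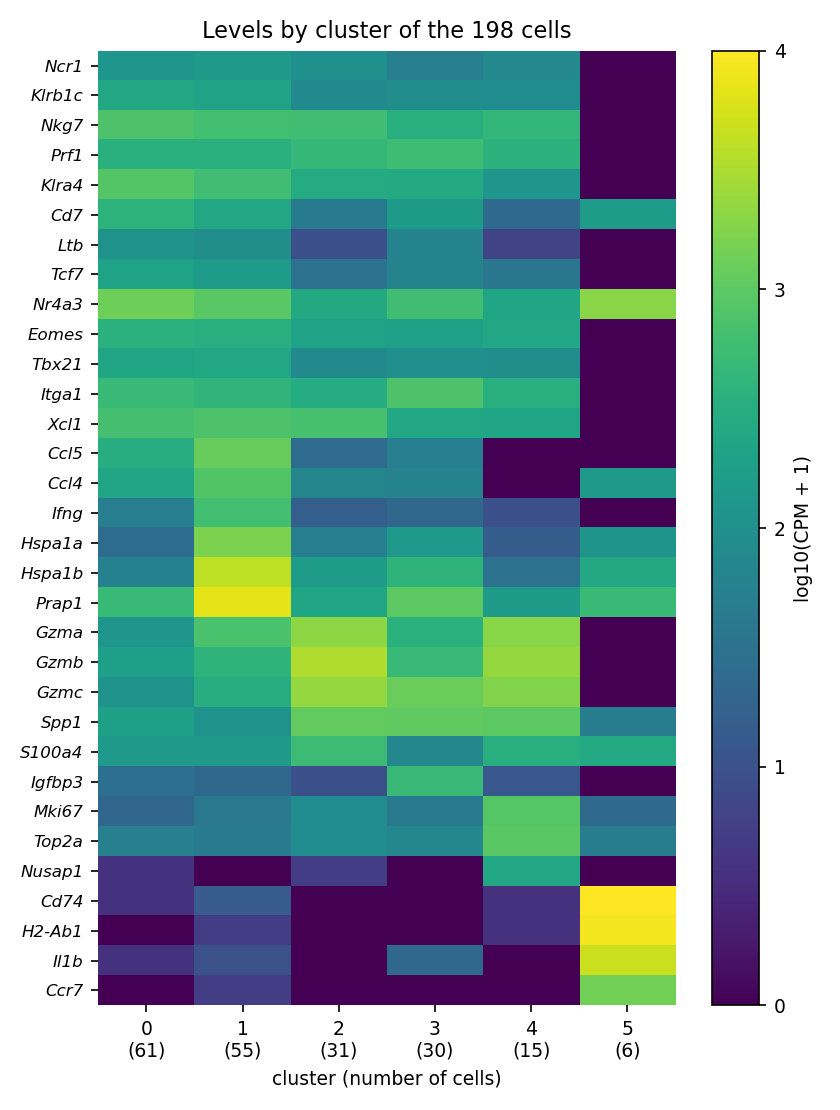
Summed levels of 32 genes (rows) in the 6 clusters of the 198 cells (columns, with cell numbers), coloured by log10(CPM + 1). Ccl5, Ccl4, Ifng and Hspa1b peak in cluster 1, Gzmb and Gzmc in clusters 2 and 4, and cluster 5 alone combines Cd74 and H2-Ab1 with no Ncr1.

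Within the 198, the 64 cells with at least 1 UMI of Gzmd to Gzmg were set beside the 134 without. The split uses counts that the rule also used, so the values are a description. The 64 were deeper (median 7152 against 4827 UMIs), so a UMI of these genes was also more likely to be seen in them, and they included 11 of the 15 cells of the cycling cluster 4. Gzmc stood at 1830.0 against 609.8 CPM, 3.001-fold higher (2.70 to 3.34), Gzma was 2.10-fold higher (1.90 to 2.32), Gzmb 1.75-fold (1.61 to 1.90), Spp1 2.39-fold (2.09 to 2.75) and Klrg1 3.37-fold (2.28 to 5.12). Mki67, the proliferation marker gene, was 5.98-fold higher (4.43 to 8.23), with 83.9% of its UMIs in cluster 4. Over all 198 cells it stood at 244 CPM, against 250.4 CPM in the granzyme-rich NK cells. In the 134 cells without, Ccl5 was 5.81-fold higher (4.43 to 7.74) at 452 against 77.7 CPM, Ccl4 8.90-fold (6.22 to 13.1), Ifng 25.5-fold (12.1 to 64.5), Xcl1 1.93-fold (1.68 to 2.24), Ltb 4.31-fold (2.42 to 8.19) and Cd7 2.88-fold (2.16 to 3.88). The cell that held most Ifng UMIs of the 198 lay among the 134, so the size of this Ifng ratio rested in large part on it. The ratios of Eomes (1.05, 0.858 to 1.28), Itga1 (0.868, 0.737 to 1.02) and Prf1 (1.14, 0.970 to 1.34) had intervals that include 1. The parts of depth and of stray granzyme RNA in this split were not tested.

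To compare shares of cells at 1 depth, every cell was thinned to 1000 UMIs, which kept 195 of the 198, 102 granzyme-rich NK cells, 35 T cells, 602 stromal and 317 epithelial cells without NK transcripts. Xcl1 was then found in 33.3% (26.8 to 40.4%) of the 198, 10.8% of the granzyme-rich, 11.4% of the T cells and 0.166% of the stromal cells. Ccl5 was found in 15.9% (11.1 to 21.8%), 0.980%, 22.9% and 0.166%, and Klra4 in 45.1% (38.0 to 52.4%) against 10.8% (5.51 to 18.5%) of the granzyme-rich cells. These 3 genes therefore marked more of the 198 than of the granzyme-rich cells at equal depth. Gzmb was found in 34.9% against 87.3%, Gzmc in 22.6% against 86.3%, Gzma in 26.2% against 56.9% and Spp1 in 27.2% against 91.2%. Eomes, at 21% against 16.7%, and Tbx21, at 12.8% against 7.84%, differed less. Spp1 in the 198 has to be read beside the 21.5% of epithelial cells that also held it, and Itga1, in 34.9%, beside 12% of them. Prap1 was found in 52.8% of the 198 but also in 45.5% of stromal and 92.4% of epithelial cells. It was 6.18-fold higher (5.25 to 7.33) than in the granzyme-rich NK cells of 3000 to 20000 UMIs, with most of its UMIs in the 1 cell given above, and the part of free RNA was not tested.

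**Figure D5:**
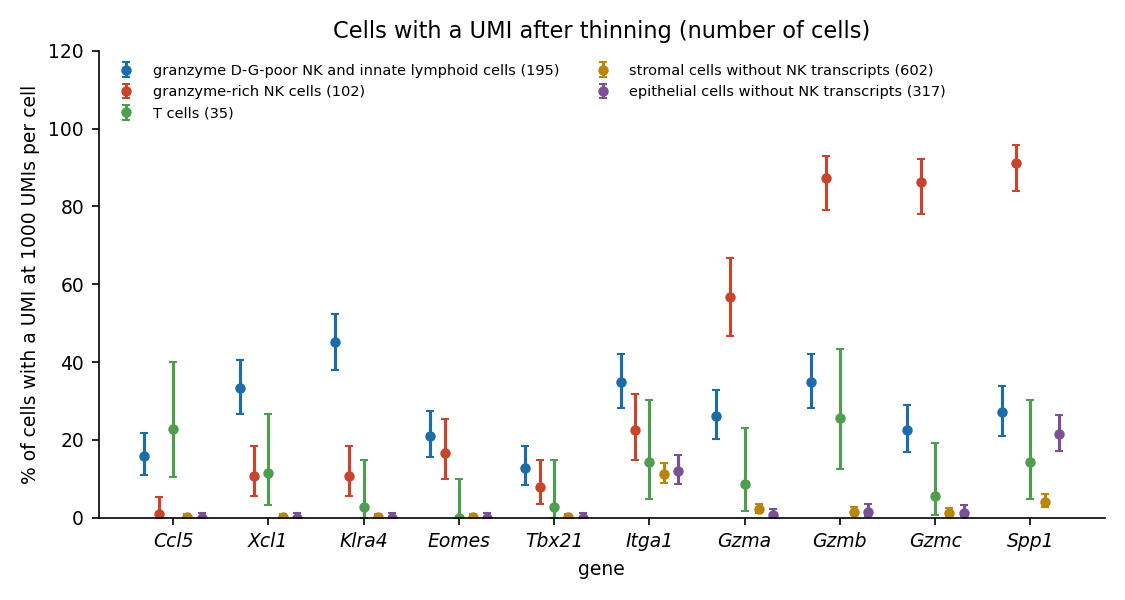
Share of cells with at least 1 UMI of each gene (horizontal axis) after thinning every cell to 1000 UMIs (vertical axis, percent) in 195 granzyme D-G-poor cells, 102 granzyme-rich NK cells, 35 T cells, 602 stromal and 317 epithelial cells; bars are exact binomial 95% intervals. The granzyme D-G-poor cells stand above the granzyme-rich ones for Ccl5 (15.9 against 0.980%), Xcl1 and Klra4 and below them for Gzma, Gzmb, Gzmc and Spp1.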

How the data were processed

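Barcodes of 1 whole-uterus library of pregnancy day 7.5 were analysed. The authors deposited UMI counts for each barcode, which Cell Ranger 4.0.0 produced, per the file headers. The kit was the 3' v3.1 chemistry, per the labels' protocols, and the submitters' processing notes name the build mm10. Annotation release and cell calling are not stated in those sources. No barcode had fewer than 500 UMIs. The library held 2775 barcodes and 16848794 UMIs (median 3225). 40 features that repeat a symbol were summed.

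Counts were summed over cells and divided by the group total (CPM), with exact Poisson 95% intervals. Ratios have exact conditional binomial intervals and shares Clopper-Pearson intervals. Intervals cover counting error only. A gene was measured with at least 50 UMIs over both sides. A ratio against 0 UMIs uses a limit of 3 counts over the group and is a lower bound. Members were clustered with scanpy 1.11.5 (1000 variable genes without genes of the rule, 15 principal components, 10 neighbours, Leiden resolution 0.5, seed 0). Scrublet marks were recorded and the cells kept. Stromal and epithelial reference cells hold at least 3 UMIs of their own markers and none of the 6 NK genes. The ratio, its interval and the 2-fold rule were checked on simulated Poisson counts without variation between cells. The other steps were not checked in this way.

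The members and the 29 lists were chosen with earlier results of these data known. Named genes are the markers, the rule genes, chosen transcription factors and integrins, the 10 most extreme ratios per direction, up to 3 per list and direction, the 3 most abundant per list and 5 leading genes per cluster. Some genes this rule takes are not reported here. Il16, Itgax, Srgn, Csf2, Tnf, Cd4 and Foxp3 were named after their values were seen. Coordinates are from GENCODE M21 (GRCm38, 32158 of 32287 identifiers matched) and promoters from RefSeq, where 13 of 16 genes looked up had an entry.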

Additional observations from a re-analysis of the deposited data

How the results depend on the processing

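Against granzyme-rich NK cells, 552 genes were higher and 184 lower. Requiring 20 UMIs gave 868 and 277, and 200 UMIs gave 205 and 59. Cells of 3000 to 20000 UMIs (131 of the 198), a limit chosen after seeing the data, gave 340 and 215. Weighting every cell alike gave 723 and 718, a granzyme limit of 5 per 10000 gave 603 and 285, leaving out cells with markers of other types, which left 143 and 36 cells and 3399 measured genes, gave 403 and 208, and leaving out cluster 4, also chosen after seeing the data, gave 732 and 485. The split of higher against lower genes therefore depended on how cells were weighted. Against all other cells, 3615 genes were lower, or 2043 with at least 200 UMIs. The cause of these shifts was not tested, beyond the fewer genes measured at a higher minimum.

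Among genes called against granzyme-rich NK cells, 3 log2 ratios changed sign: Depp1 (-0.58) and Wfdc2 (-0.58) without cells with markers of other types, and Hspa1b (-1.28) without cluster 1. Ratios under 2-fold also changed sign. Among them were Hspa1a (-1.79) without cluster 1, and Hist1h1b (-5.87), Hist1h2ae (-3.31), Hist1h3c (-3.46) and Nusap1 (-4.39) without cluster 4. Against all other cells Dsc2 turned to 0.33 when every cell was weighted alike. Without cells with markers of other types and without cluster 4, in that order, the cycle genes turned negative: Hist1h1b (-1.60, -4.10), Hist1h2ae (-1.99, -2.24), Hist1h2ap (-0.74, -2.04), Hist1h3c (-2.10, -1.99), Mki67 (-0.39, -1.01), Nusap1 (-1.77, -3.27) and Top2a (-0.23, -0.88). Of 2180 ratios to granzyme-rich NK cells over all settings 1820 stayed within their counting interval, 357 moved beyond it and 3 were called ratios that changed sign. Of 185 thinned shares 90 stayed and 95 moved when cells were thinned to 2000 UMIs. No paired analysis was possible because the comparisons are between cells of 1 library.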
